A study of Marchantia polymorpha with 18 samples.

Results

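Among 19355 genes counted in thallus of the liverwort Marchantia polymorpha, 68 made up the set of genes whose level in crushed lobes was at most 1/3 of that in intact plants, in the wild type and in the mutant Mpglr-9 alike. Levels are given in CPM, the count of a gene divided by the total count of its library and scaled to 1000000. A gene entered the set when its mean over the 6 intact libraries was at least 5 CPM and when the mean of the 3 damaged libraries was at most 1/3 of the mean of the 3 intact libraries in each genotype. Genes of the male V chromosome and the 100 genes with the highest levels in intact plants were left out. Of the 10325 genes with at least 5 CPM, 69 (0.668%) met the ratio, and 1 of them, Mp3g20970, was left out because it belonged to the 100 highest (1255 ± 30.6 CPM in wild-type intact plants (SD, n = 3) and 269 CPM in damaged lobes). Since the damaged and intact libraries chose the members, their levels in those libraries are described below without a test.

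The study asked what MpGLR, a glutamate receptor-like gene, does in the response of gene expression to wounding. Plants were 28 days old and had grown on soil. Intact groups held thallus of unwounded wild-type or Mpglr-9 plants, Mpglr-9 being the 1 CRISPR deletion line that the labels name. Damaged groups held 2 lobes crushed with serrated forceps, and systemic groups held the neighbouring lobes of those wounded plants, which had not been touched. All were collected 4 h after wounding. Each of the 6 groups had 3 independent biological replicates, and each replicate pooled the tissue of 9 plants. RNA came from bulk tissue, so that fewer cells of a type and less RNA per cell cannot be told apart.

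The thallus of a liverwort is a flat sheet that grows from notches at its tips, takes up water and ions over its surface and from rhizoids, and carries air chambers and single oil body cells. Late embryogenesis abundant (LEA) proteins and dehydrins, a subclass of them, are hydrophilic proteins that plants accumulate in seeds, spores and tissue that loses water. Terpene synthases, cytochrome P450 enzymes and UDP-dependent glycosyltransferases build and decorate specialised metabolites, and many of their products in liverworts are stored in oil bodies. Cupins are a large family of small barrel-shaped proteins, and part of them are germin-like proteins of the cell wall.

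Libraries held between 17312755 and 30690205 counts, so that 3 counts, the limit used here for a gene with no read, came to 0.0978 to 0.173 CPM, counting error only. On the first principal component of all genes with at least 5 CPM (81.3% of the variance of log2(CPM + 1)), the 6 damaged libraries lay at 34.3 to 50.8 and the other 12 at -23.1 to -18.6. The second component (6.62%) set the library numbered 3 apart in every group. It stood at 18.96 in wild-type intact and 15.78 in Mpglr-9 intact plants, against -11.9 to -7.59 in the intact libraries numbered 1 and 2.

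This division of the libraries ran through the set. In 22 of the 68 genes, the intact library numbered 3 was at least 3 times the mean of the intact libraries 1 and 2 in both genotypes. The split was made after the values were seen, and the smaller of both folds jumped from 1.91 (Mp7g12620) to 3.47 (Mp2g15320) between the groups. The 22 are called the replicate 3 genes here, and the remaining 46 the other genes. Over all 10325 genes with at least 5 CPM, 45 showed the same excess of library 3, and 22 of these 45 were in the set. The rule read the same intact libraries, and a high library 3 raises the intact mean. The overlap is therefore favoured by the rule, and nothing is read from it.

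The summed level of the 22 replicate 3 genes was 33.1, 12.46 and 731 CPM in the wild-type intact libraries 1, 2 and 3. It was 24.6, 25.03 and 56.6 CPM in the damaged libraries and 108, 189 and 310 CPM in the systemic ones. In Mpglr-9 the intact libraries summed to 38.1, 18.3 and 366 CPM, the damaged ones to 16.6, 17.4 and 57.2 CPM and the systemic ones to 92.2, 40.4 and 213 CPM. Library 3 was the highest of its group in all 6 groups, and intact libraries 1 and 2 overlapped with the damaged libraries. The split itself had set this order in the intact groups. The other 46 genes summed to 3662 to 3769 CPM in wild-type intact plants and to 848 to 1050 CPM in damaged lobes, with no overlap between the groups. In Mpglr-9 their sums were 3675 to 4036 and 879 to 1056 CPM.

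**Figure D1:**
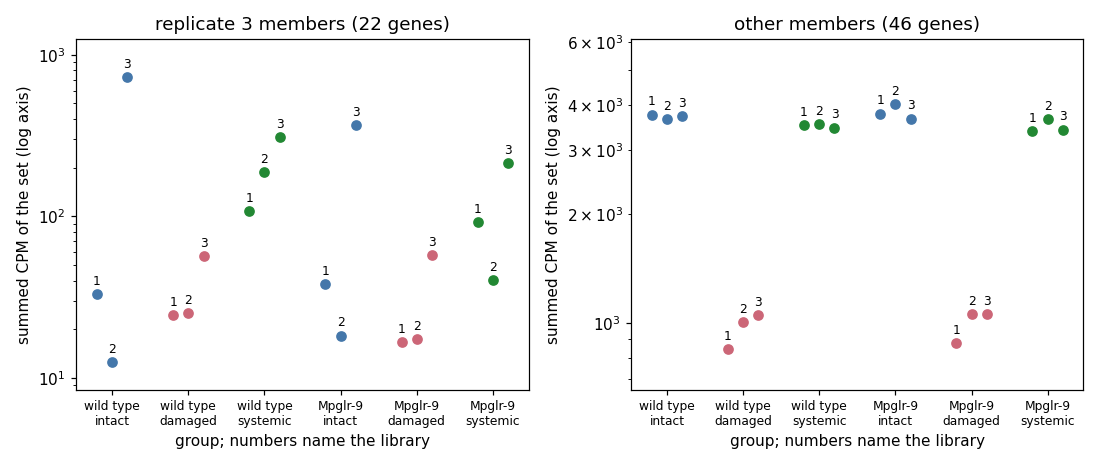
Summed CPM (log axis) of the 22 replicate 3 genes (left) and of the 46 other genes (right) in each of the 18 libraries, 1 point per library with its number, by group. On the left the library numbered 3 is the highest in every group (731 CPM in wild-type intact plants against 33.1 and 12.46), an order that the split set in the intact groups. On the right all damaged libraries (848 to 1056 CPM) lie below all intact and systemic ones (3394 to 4036 CPM).

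Without the libraries numbered 3, none of the 22 replicate 3 genes had a wild-type damaged mean of at most 1/3 of the intact mean, and in 12 of them the damaged mean was above the intact one. Their median ratio of damaged to intact was then 1.08 in the wild type and 0.678 in Mpglr-9, where 2 genes stayed at or under 1/3. For the other 46 genes the median ratios without library 3 were 0.229 and 0.238, with 42 and 43 genes at or under 1/3. The split had used the excess of intact library 3, so leaving library 3 out favours this contrast between the 22 and the 46. Read over all genes, the rule gave 58 genes without the libraries numbered 3. Of these 58, 41 were among the 68, and all 41 were other genes. Without the libraries numbered 1 the rule gave 74 genes, 61 of them shared, and without those numbered 2 it gave 81, 64 of them shared. The 5 other genes that left the set without library 3 were Mp1g02900, Mp6g09300, MpKFB01_20, Mp7g12620 and Mp8g05120.

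**Figure D2:**
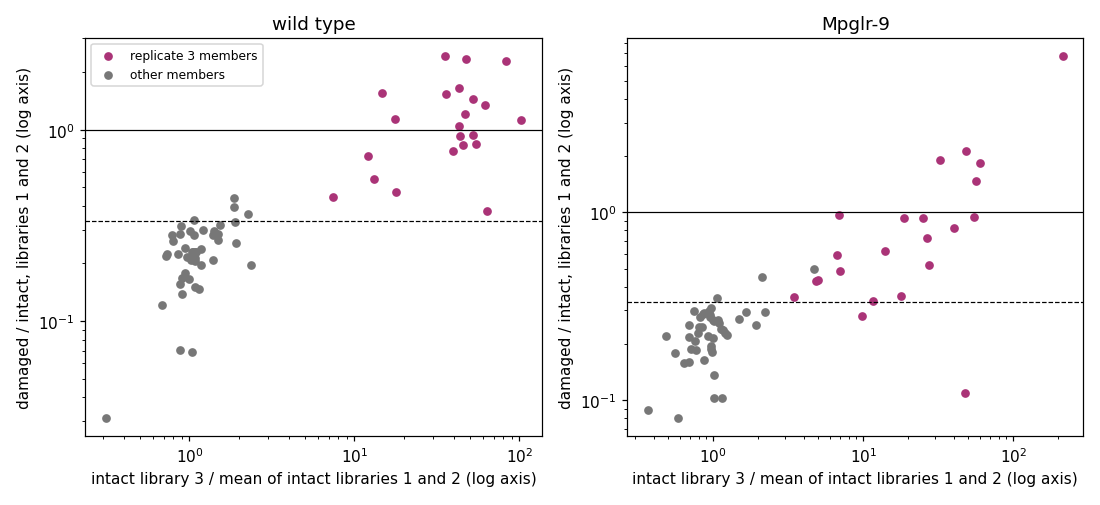
For each of the 68 genes, the level of intact library 3 over the mean of intact libraries 1 and 2 (x, log axis) against the ratio of damaged to intact in libraries 1 and 2 alone (y, log axis), in the wild type (left) and Mpglr-9 (right); the solid line marks a ratio of 1 and the dashed line 1/3. The 22 replicate 3 genes lie to the right, at median folds of 43.4 and 21.8, and nearly all above the dashed line. Of the 46 other genes, 42 (wild type) and 43 (Mpglr-9) lie at or below it. The split was made on the fold shown on the x axis, which favours this division on both axes.

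Single libraries overlapped to different degrees. Every wild-type intact library was above every wild-type damaged library in 48 of the 68 genes, that is in all 46 other genes and in the replicate 3 genes MpLEA-like7 and Mp2g15320. The same held in 36.3% of all genes with at least 5 CPM. In Mpglr-9 it held in 47 of 68, all 46 other genes and Mp2g15320, against 34.8% of all genes. Because the rule used these libraries, and the split into 22 and 46 genes used the intact ones, nothing is read from either count or from how it divides. In 20 of the 46 other genes, and in none of the 22, the damaged library was at most 1/3 of the intact library of the same number in all 3 numbers of both genotypes. The rule and the split both favour this, and its share over all genes was not counted, so nothing is read from it. In the wild type these numbers do not count as pairs. The limit used here was a correlation of their deviations across genes over 0.1 in every number. The smallest was 0.0967 in the wild type and 0.104 in Mpglr-9, so the genotypes differed little in this.

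**Figure D3:**
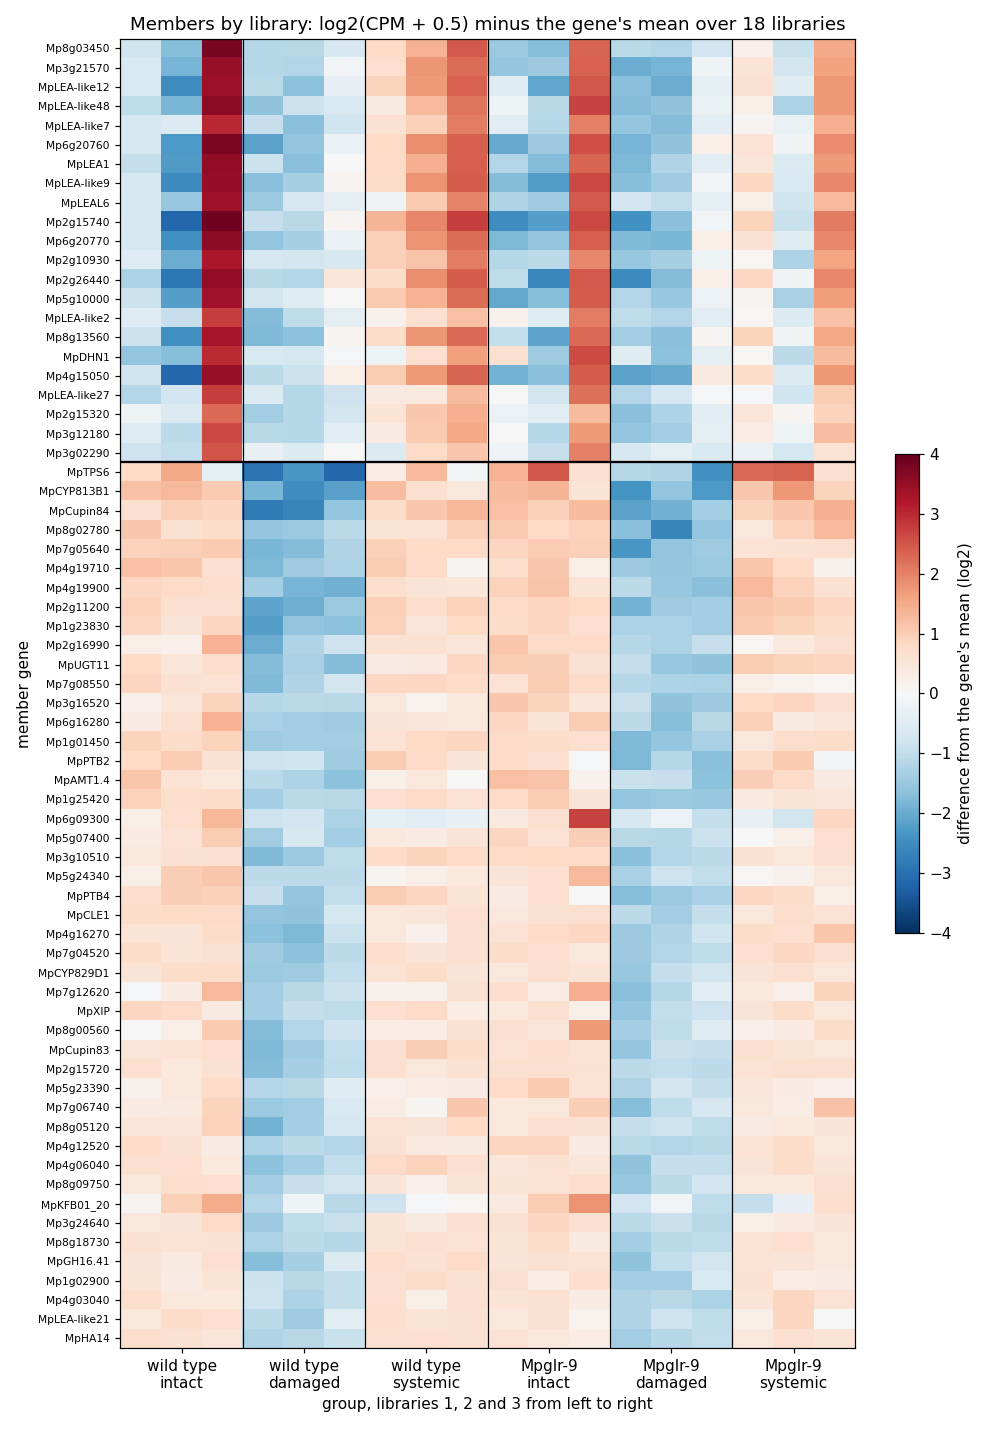
Level of each of the 68 genes (rows) in each of the 18 libraries (columns, libraries 1, 2 and 3 of each group from left to right), as log2(CPM + 0.5) minus the gene's mean over all libraries (red above, blue below). The 22 replicate 3 genes are above the thick line and are high in library 3 of the intact groups; the 46 other genes below it are low in all 6 damaged libraries and near level across the intact and systemic ones, except genes such as MpKFB01_20 and Mp6g09300.

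Among the other genes, MpTPS6 and MpCYP813B1 had the lowest ratios of damaged to intact, averaged over genotypes. MpTPS6 (Mp3g13150), of the terpene synthase family, stood at 8.57, 14.2 and 3.55 CPM in wild-type intact plants and at 0.173, 0.537 and 0.0882 CPM in damaged lobes. In Mpglr-9 it stood at 12.995, 28.2 and 7.52 CPM in intact plants and at 1.86, 1.77 and 0.461 CPM in damaged lobes. Intact means were 33.0-fold (wild type) and 11.9-fold (Mpglr-9) the damaged means, and the intact libraries spread more than 3-fold within each genotype without reaching the damaged ones. The third wild-type damaged value lay under the limit of 3 counts (0.132 CPM), so that the size of the wild-type fold rests on few reads.

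MpCYP813B1 (Mp3g22470), a cytochrome P450, was at 15.9, 17.4 and 14.7 CPM in wild-type intact plants and at 1.56, 0.785 and 1.10 CPM in damaged lobes. In Mpglr-9 its values were 17.1, 18.02 and 10.2 CPM intact and 0.888, 1.94 and 0.969 CPM damaged. Folds were 13.9 and 11.9, and the groups did not overlap, as in all 46 of the other genes. MpCYP829D1 (Mp4g10800), a second P450, stood at 12.6 ± 1.16 CPM in wild-type intact and 2.91 ± 0.693 CPM in damaged tissue (SD, n = 3), and at 11.5 ± 0.777 and 3.54 ± 1.08 CPM in Mpglr-9. MpUGT11 (Mp2g23900), a glycosyltransferase, had intact and damaged means of 28.4 ± 3.11 and 5.58 ± 1.10 CPM in the wild type and of 32.8 ± 5.06 and 6.72 ± 1.92 CPM in Mpglr-9 (SD, n = 3). All these enzymes had a systemic level above the damaged level in every library of both genotypes.

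The adjacent cupin genes MpCupin83 (Mp5g13860) and MpCupin84 (Mp5g13870) were both in the set, at different ratios. MpCupin84 was at 24.1, 30.2 and 28.2 CPM in wild-type intact plants and at 1.73, 2.02 and 4.81 CPM in damaged lobes. Its Mpglr-9 values were 36.2, 30.1 and 37.9 CPM intact and 3.06, 3.71 and 5.67 CPM damaged. Folds were 9.63 and 8.37 for MpCupin84 and 3.82 and 3.35 for MpCupin83, whose wild-type means were 263 ± 17.1 CPM intact and 68.8 ± 19.0 CPM damaged (SD, n = 3). In both cupin genes damaged library 1 was the lowest of its genotype. How reads that fit both neighbours were counted is not given in the sources used here, so their separate levels are uncertain. MpGH16.41 (Mp8g10370), of a family of enzymes that cut or rejoin wall polysaccharides, was 16.5 ± 1.78 CPM in wild-type intact plants and 5.04 ± 2.35 CPM in damaged lobes (SD, n = 3).

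Transport genes were 4 named members plus the channel gene MpXIP. MpHA14 (Mp3g12390), a plasma membrane proton pump, stood at 185, 171 and 156 CPM in wild-type intact plants and at 48.9, 52.2 and 60.9 CPM in damaged lobes. Its Mpglr-9 values were 169, 153 and 139 CPM intact and 42.4, 50.9 and 56.6 CPM damaged. The folds of 3.16 and 3.08 were near the limit of the set. MpAMT1.4 (Mp8g05280), an ammonium transporter gene, had means of 15.3 ± 4.14 and 3.37 ± 0.732 CPM in the wild type and 17.3 ± 6.21 and 3.89 ± 1.17 CPM in Mpglr-9 (SD, n = 3).

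MpPTB4 (Mp4g16560) and MpPTB2 (Mp4g16580), phosphate transporter genes 2 loci apart, had wild-type folds of 4.21 and 4.13 and Mpglr-9 folds of 3.81 and 5.16. The wild-type means of MpPTB4 were 37.7 ± 3.87 CPM intact and 8.95 ± 2.07 CPM damaged, and those of MpPTB2 were 8.56 ± 1.29 and 2.07 ± 0.573 CPM (SD, n = 3). MpXIP (Mp3g14380), of an aquaporin subfamily that seed plants also have, had intact and damaged means of 8.43 ± 1.52 and 2.12 ± 0.390 CPM in the wild type and of 7.17 ± 1.11 and 2.13 ± 0.631 CPM in Mpglr-9 (SD, n = 3). In each of these transport genes all intact libraries were above all damaged ones, as in all 46 of the other genes. The rule had used these libraries, and 36.3% (wild type) and 34.8% (Mpglr-9) of all genes with at least 5 CPM did the same.

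The set held 1 signalling peptide gene. MpCLE1 (Mp6g07050) encodes a CLE peptide, and in this liverwort the peptide is known to restrain cell division at the growing notch. It was at 13.3, 14.0 and 13.7 CPM in wild-type intact plants and at 2.31, 2.23 and 4.59 CPM in damaged lobes. In Mpglr-9 it was at 10.9, 12.3 and 12.49 CPM intact and 3.51, 2.70 and 3.78 CPM damaged. Its systemic level was 11.6 ± 0.997 CPM in the wild type and 11.96 ± 1.16 CPM in Mpglr-9 (SD, n = 3), well above the damaged libraries. In the wild type the systemic libraries, at 11.02, 11.1 and 12.8 CPM, also lay below all 3 intact ones, whereas in Mpglr-9 the systemic and intact libraries overlapped.

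MpKFB01_20 (Mp6g10520), of the kelch repeat F-box family whose members select proteins for degradation, varied widely already in intact plants. It was at 116, 207 and 298 CPM in wild-type intact plants, at 47.5, 94.4 and 49.8 CPM in damaged lobes and at 59.5, 102 and 114 CPM in systemic lobes. In Mpglr-9 the values were 141, 216 and 377 CPM intact, 63.0, 98.7 and 52.3 CPM damaged, and 54.7, 84.9 and 176 CPM systemic. Systemic and damaged libraries overlapped in both genotypes. Library 3 was the highest intact library in each genotype, and without it the ratios of damaged to intact were 0.440 and 0.453.

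**Figure D4:**
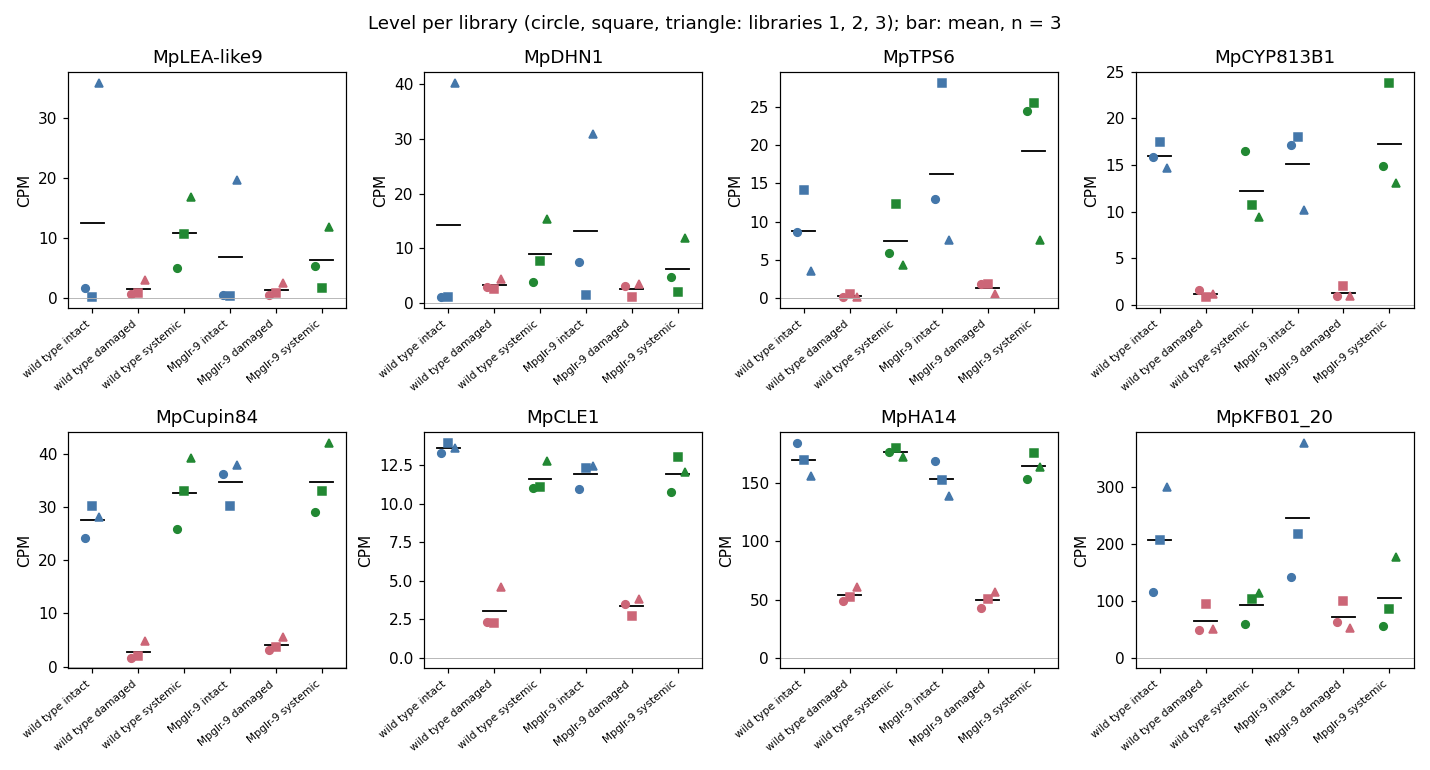
CPM of 8 members in each library (circle, square and triangle for libraries 1, 2 and 3; bar for the mean, n = 3) by group. MpLEA-like9 and MpDHN1 are high mainly in library 3 of the intact groups; MpTPS6, MpCYP813B1, MpCupin84, MpCLE1 and MpHA14 are lower in every damaged library than in every intact or systemic library of the same genotype; MpKFB01_20 has systemic values (54.7 to 176 CPM) that reach into the damaged range (47.5 to 98.7 CPM).

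Of the 46 other genes, 31 had no symbol in the names used, and no role is given for them. The one with the most counts, Mp4g12520, was at 948, 837 and 700.1 CPM in wild-type intact plants and at 235, 267 and 242 CPM in damaged lobes. Its Mpglr-9 values were 1011, 998 and 689 CPM intact and 259, 246 and 254 CPM damaged. Damaged values were thus within a narrow range in both genotypes, while library 3 was the lowest intact one. Mp1g25420 (292 ± 25.1 CPM in wild-type intact plants), Mp4g06040 (279 ± 24.9), Mp1g01450 (287 ± 17.1), Mp8g18730 (277 ± 2.43), Mp7g05640 (185 ± 8.13) and Mp2g11200 (166 ± 19.7; SD, n = 3 throughout) had wild-type folds of 3.96, 3.72, 4.80, 3.39, 5.88 and 6.05. Their Mpglr-9 folds, in the same order, were 4.94, 3.20, 4.80, 3.24, 6.44 and 5.14.

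Among unnamed genes with fewer counts, Mp1g23830 (6.64-fold in the wild type and 4.56-fold in Mpglr-9), Mp4g19710 (6.60 and 5.53), Mp4g19900 (5.95 and 5.24), Mp2g16990 (5.46 and 5.24), Mp6g16280 (5.18 and 4.56) and Mp8g02780 (5.04 and 8.23) had intact means more than 5 times the damaged ones in the wild type. Mp8g02780 was at 21.8, 15.4 and 16.8 CPM in wild-type intact plants and at 3.00, 3.22 and 4.50 CPM in damaged lobes. Over the 46, the folds ran from 3.01 to 33.0 with a median of 4.06 in the wild type, and from 3.03 to 11.9 with a median of 4.01 in Mpglr-9. The members nearest inside the limit were Mp1g02900, whose larger ratio was 0.3327, Mp8g05120 (0.3299) and Mp4g03040 (0.3297). Nearest outside it were Mp1g13140 (0.3335), Mp3g12790 (0.3339) and MpCYP829-like12 (0.3341).

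LEA proteins and dehydrins accounted for 9 of the 22 replicate 3 genes (MpLEA-like2, MpLEA-like7, MpLEA-like9, MpLEA-like12, MpLEA-like27, MpLEA-like48, MpLEAL6, MpLEA1 and MpDHN1), and the other 13 had no symbol. Of all 10325 genes with at least 5 CPM, 35 had a LEA or dehydrin symbol. The family was looked at after the values were seen, its share was not tested, and among the 46 other genes it had 1 member, MpLEA-like21 (Mp4g13720), at 6.08, 7.52 and 7.20 CPM in wild-type intact plants and 1.79, 1.32 and 3.13 CPM in damaged lobes.

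MpLEA-like9 (Mp2g26450) was at 1.53, 0.0445 and 35.9 CPM in wild-type intact plants and at 0.520, 0.785 and 3.00 CPM in damaged lobes. In untouched lobes of the same wounded plants it was at 4.86, 10.6 and 16.8 CPM. The intact mean of 12.5047 CPM thus rested on library 3, and in number 2 the intact value was below the damaged one. In Mpglr-9 it was at 0.467, 0.186 and 19.6 CPM intact, 0.488, 0.707 and 2.49 CPM damaged and 5.27, 1.62 and 11.7 CPM systemic.

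MpDHN1 (Mp6g07540), the dehydrin of the set, was at 1.21, 1.07 and 40.3 CPM in wild-type intact plants, 2.89, 2.64 and 4.50 CPM in damaged lobes and 3.94, 7.76 and 15.5 CPM in systemic lobes. Its Mpglr-9 values were 7.43, 1.41 and 30.9 CPM intact, 3.15, 1.15 and 3.41 CPM damaged and 4.77, 1.99 and 11.96 CPM systemic. Wild-type damaged libraries 1 and 2 were therefore higher than the intact ones of the same number, and library 3 was far lower. MpLEA1 (Mp5g23710) showed a like order, at 0.961, 0.0890 and 32.6 CPM intact, 1.04, 0.372 and 2.29 CPM damaged and 4.26, 7.11 and 14.2 CPM systemic in the wild type.

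In the wild type the damaged value exceeded the intact value of the same number in 6 of the 22 genes for library 1 and in 17 for library 2. These numbers do not count as pairs (smallest correlation of their deviations across genes 0.0967), and the split favours low intact values in both, so the counts are a description. The unnamed gene Mp2g15740 was at 2.99, 0.133 and 81.4 CPM in wild-type intact plants, 2.43, 2.07 and 5.47 CPM in damaged lobes and 13.7, 20.9 and 37.2 CPM in systemic lobes. Mp8g03450 had the widest contrast between intact libraries, with 0.427, 0 and 21.9 CPM in the wild type and 0.0718, 0 and 7.67 CPM in Mpglr-9. A count of 0 allowed up to 0.133 CPM in the second wild-type library. Across the 22 genes the excess of intact library 3 was 7.46-fold to 103-fold in the wild type and 3.47-fold to 214-fold in Mpglr-9, the largest folds being against values near the limit of 3 counts.

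Not every gene of the family behaved in this way. Of 72 genes with a LEA or dehydrin symbol, 35 had at least 5 CPM in intact plants, and 25 of the 35 were no members. Of these 25, 6 showed the excess of intact library 3 in both genotypes without meeting the ratio, and 10 had a damaged mean above the intact mean in both genotypes. MpDHN2, a dehydrin outside the set, was at 21.3, 27.1 and 27.9 CPM in wild-type intact plants and at 227, 162 and 149.5 CPM in damaged lobes, 7.06 times as high in the mean, and 5.69 times as high in Mpglr-9. MpLEA-like33 was 4.82 and 4.63 times as high in damaged lobes. By edgeR's quasi-likelihood test (Benjamini-Hochberg adjusted p under 0.05), 9 of 62 tested family genes rose and 7 fell in damaged against intact tissue in each genotype. The 62 include the 10 members, which the rule had chosen for a fall in these libraries, so these counts are a description. Of all 13450 tested genes, 27.7% rose and 27.8% fell in the wild type, and 27.6% rose and 27.2% fell in Mpglr-9.

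In untouched lobes of wounded plants the other genes stood near their level in intact plants, with a median ratio of systemic to intact mean of 0.927 in the wild type and 0.983 in Mpglr-9. Every systemic library was above every damaged library in 65 of 68 members in the wild type (45 of the 46 and 20 of the 22), where 35.5% of all genes with at least 5 CPM did the same. In Mpglr-9 the count was 47 of 68 (44 of 46 and 3 of 22), against 35.9%. The damaged libraries had chosen the genes, so these counts are a description. Among the other genes the exceptions were MpKFB01_20 in both genotypes and Mp6g09300 in Mpglr-9.

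In the replicate 3 genes the systemic level lay between library numbers. With library 1 or 2 the systemic value exceeded the intact value of the same number in 22 and 22 of 22 genes in the wild type and in 18 and 18 in Mpglr-9. With library 3 it did so in 0 of 22 in each genotype. The 22 genes had been set apart by low intact libraries 1 and 2 against library 3, which favours all these counts. In the wild type the numbers of intact and systemic libraries do not count as pairs (smallest correlation of their deviations across genes 0.0388). The systemic library numbered 3 was the highest of its group in 22 of 22 genes in both genotypes, at a median of 2.08 (wild type) and 3.44 times (Mpglr-9) the mean of systemic libraries 1 and 2. Over all genes with at least 5 CPM, the second principal component also set library 3 apart in every group. The share of all genes highest in systemic library 3 was not counted, so nothing particular to the 22 is read from this.

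The test of systemic against intact tissue, fitted over all 13450 genes, called none of the 68 in either genotype, and 0% of all genes were called. At an unadjusted p under 0.05, edgeR gave 2 members in the wild type and 8 in Mpglr-9, out of 353 and 810 genes, and DESeq2 and limma-voom also called none after adjustment. Members were chosen partly for a high intact mean, which favours lower systemic than intact values. The median log2 change over the 46 other genes was -0.10 in the wild type and -0.04 in Mpglr-9, and 0.00 over all genes in both. The approximate 95% interval (estimate ± 1.96 SE) lay within 1 log2 unit of 0 for 40 and 38 of the 46, and for 0 of the 22, whose median SE was 1.43 and 1.48.

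In the contrast averaged over both genotypes, Mp5g24340, Mp6g09300 and MpKFB01_20 had the smallest p among the members. Mp5g24340 was at 10.5, 18.02 and 19.8 CPM in wild-type intact plants and 9.61, 10.7 and 11.9 CPM in systemic lobes. In Mpglr-9 it was at 12.9, 14.3 and 22.4 CPM intact and 9.08, 10.02 and 12.2 CPM systemic. Averaged over both genotypes, a contrast added after the data were seen, its log2 change was -0.63 ± 0.16 (SE; edgeR adjusted p = 0.510), with a lower systemic mean in both genotypes. With the library number as a block it was called (log2 -0.60, edgeR adjusted p = 0.0311), although the numbers do not count as pairs. Mp6g09300 was at 10.9, 14.7 and 23.9 CPM in wild-type intact plants and 7.04, 6.57 and 7.27 CPM in systemic lobes, with no overlap. In Mpglr-9 it was at 12.1, 14.4 and 62.2 CPM intact and 7.31, 5.31 and 16.4 CPM systemic, where the groups overlapped and intact library 3 was far above the others. Its averaged log2 change was -1.43 ± 0.42 (adjusted p = 0.704), and that of MpKFB01_20 was -1.20 ± 0.37 (adjusted p = 0.720). No member was called in the averaged contrast (0% of all genes), with 7 members and 773 genes at an unadjusted p under 0.05 and none called by DESeq2 or limma-voom.

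With all libraries numbered 3 left out, a setting added after the data were seen, the replicate 3 genes stood higher in systemic than in intact tissue. The estimate was above 0 in 22 of 22 genes in the wild type and in 19 of 22 in Mpglr-9, with a median log2 change of 3.19 and 2.02. At an unadjusted p under 0.05 there were 22 and 14 of the 22, among 601 and 955 of 13512 genes. None of them passed the adjusted threshold within a genotype (0.0296% and 0% of all genes called), and averaged over genotypes 1 did, Mp8g03450 (edgeR adjusted p = 0.0480; 0.0962% of all genes). These genes had been set apart by low values in intact libraries 1 and 2 against library 3, which favours a higher systemic value, so the direction is no separate observation. Among the other 46 genes, the median log2 change without library 3 was -0.02 and -0.07, and Mp6g09300 was called in the averaged contrast at a log2 change of -0.99 ± 0.13 (SE; adjusted p = 0.00999), against -1.43 with all libraries.

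Loss of MpGLR was examined in each kind of tissue. None of the 68 members was called between Mpglr-9 and the wild type in systemic lobes (0.052% of all genes called), in intact plants (0.0223%) or in damaged lobes (0.0297%). At an unadjusted p under 0.05 edgeR gave 3, 1 and 3 members, out of 673, 402 and 781 genes, and neither DESeq2 nor limma-voom called a member. The systemic libraries had no part in the choice of members. In them the approximate 95% interval of the genotype difference lay within 1 log2 unit of 0 for 40 of the 46 other genes, whose median log2 difference was 0.05. It did so for 0 of the 22 replicate 3 genes, whose median SE was 1.49.

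MpTPS6 had the largest estimated log2 difference between genotypes among the other genes in all 3 tissues. In systemic lobes it was at 5.92, 12.2 and 4.26 CPM in the wild type and at 24.5, 25.5 and 7.58 CPM in Mpglr-9. The groups overlapped, the log2 difference was 1.37 ± 0.66 (SE), and the adjusted p was 0.948 with edgeR. In intact plants the log2 difference was 0.93 ± 0.65 (adjusted p = 1), and in damaged lobes 2.30 ± 1.15 (adjusted p = 0.853). The mutant mean was the higher one in all 3 tissues, and none of the 3 contrasts passed the threshold in the fit without a replicate block. A fit with the library number as a block called the systemic difference (log2 1.35, edgeR adjusted p = 0.0153), although the numbers do not count as pairs there.

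Mp7g08550, an unnamed gene, had the smallest p in systemic lobes. It was at 6.80, 6.79 and 6.37 CPM in the wild type and at 4.40, 4.02 and 3.81 CPM in Mpglr-9, without overlap. The log2 difference was -0.70 ± 0.22 (SE; edgeR adjusted p = 0.612). In intact plants its groups overlapped, at 6.94, 5.65 and 5.54 CPM against 5.53, 7.71 and 6.43 CPM. MpUGT11 (0.39 ± 0.18) and Mp4g19900 (0.41 ± 0.19) had the next smallest p in systemic lobes, each at an adjusted p of 0.948. In intact plants the smallest p was that of MpPTB4, at 33.3, 40.3 and 39.6 CPM in the wild type against 25.6, 32.6 and 20.1 CPM in Mpglr-9 (log2 difference -0.50 ± 0.19, adjusted p = 1).

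In damaged lobes Mp1g25420 was at 64.9, 79.1 and 77.0 CPM in the wild type and 55.8, 59.7 and 58.2 CPM in Mpglr-9, which did not overlap (log2 difference -0.34 ± 0.11, edgeR adjusted p = 0.763). Mp1g23830 was at 1.79, 3.06 and 2.91 CPM against 3.86, 3.93 and 3.55 CPM, higher in all mutant libraries (0.54 ± 0.18, adjusted p = 0.763). Mp2g15720 was at 7.39, 9.91 and 12.3 CPM against 12.1, 12.8 and 12.04 CPM, which overlapped (0.32 ± 0.12, adjusted p = 0.825).

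All 22 replicate 3 genes had a lower mean in Mpglr-9 than in the wild type in intact and in systemic tissue, none of them called. Their median log2 difference was -0.81 in systemic lobes and -0.95 in intact plants, with median SEs of 1.49 and 1.44. In intact plants most of the summed difference sat in library 3, where the level was 731 CPM in the wild type and 366 CPM in Mpglr-9, whereas libraries 1 and 2 summed to 33.1 and 12.46 against 38.1 and 18.3 CPM. In systemic lobes the sums were 108, 189 and 310 CPM in the wild type and 92.2, 40.4 and 213 CPM in Mpglr-9, and the widest gap was between the libraries numbered 2. The 22 genes moved together in single libraries, so their shared sign is not 22 separate observations.

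**Figure D5:**
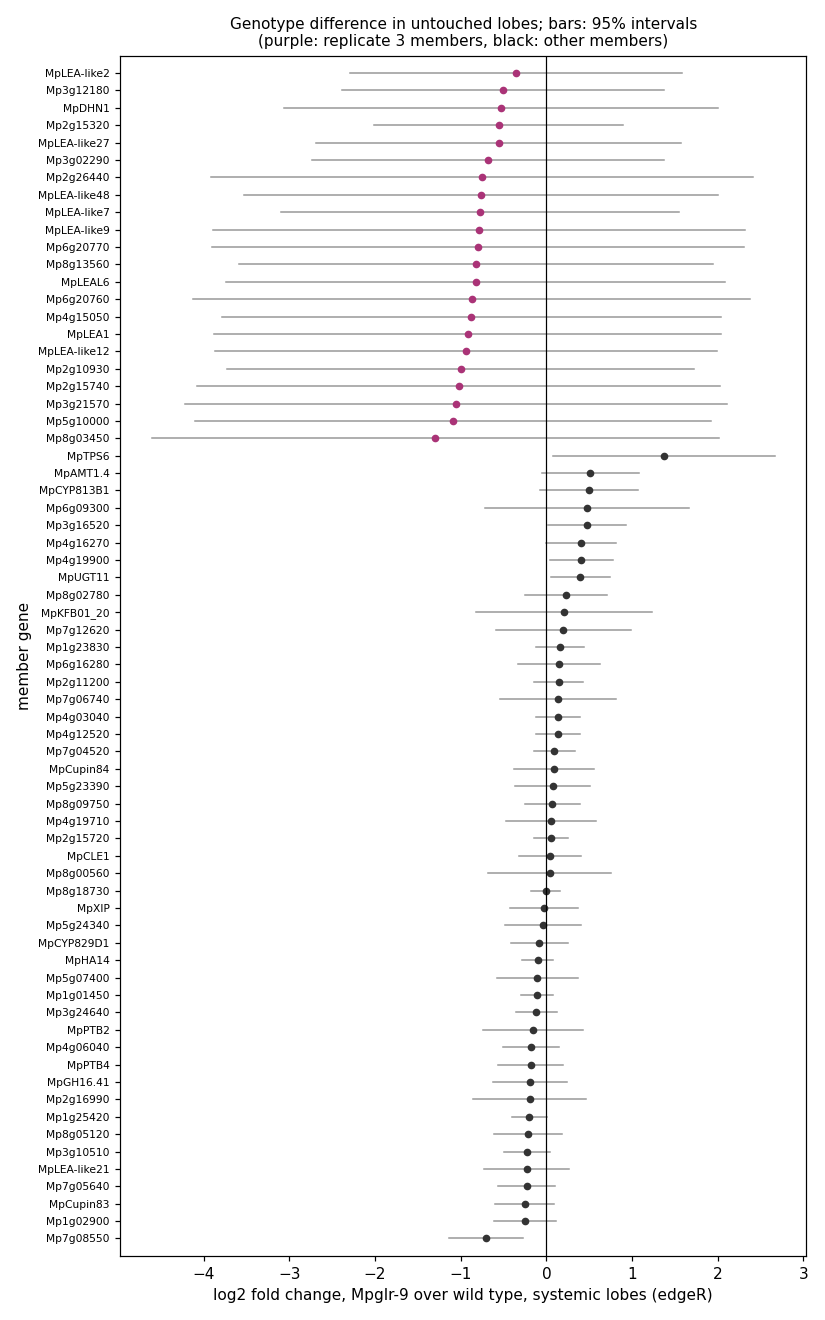
Log2 fold change of Mpglr-9 over the wild type in systemic lobes for all 68 members (edgeR; points are estimates, bars approximate 95% intervals), with the 22 replicate 3 genes at the top and the 46 other genes below. The replicate 3 genes lie at -1.30 to -0.35 with intervals that all include 0; most other genes lie near 0, with MpTPS6 at 1.37 and Mp7g08550 at -0.70 at the ends.

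The difference between genotypes in the change itself was tested as an interaction. No member was called for damaged against intact tissue (0% of all genes) or for systemic against intact tissue (0%). At an unadjusted p under 0.05 edgeR gave 2 members in each, out of 335 and 356 genes, and DESeq2 and limma-voom called no member in either. The smallest p values were those of Mp1g23830 (0.51 ± 0.23) and Mp1g25420 (-0.33 ± 0.15) for damaged tissue and of Mp7g08550 (-0.85 ± 0.30) and Mp3g10510 (-0.45 ± 0.19) for systemic tissue, as log2 differences with SE, all at an edgeR adjusted p of 1. The rule had bounded the damaged change in both genotypes from above, so a strong interaction of the first kind was less likely to be met in the set. For 33 (damaged) and 36 (systemic) of the 46 other genes the approximate 95% interval lay within 1 log2 unit of 0.

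The ratio was also read in libraries that had not chosen the genes. With the rule applied to numbers 1 and 2 alone, 58 genes were chosen. Between the damaged and intact libraries numbered 3, 34 of them in the wild type and 32 in Mpglr-9 had a ratio at or under 1/3. The share of all genes was 0.603% and 0.564%, and all 58 were below 1 in both genotypes. In the wild type these numbers do not count as pairs. With number 1 held out, 40 and 48 of 74 chosen genes were at or under 1/3 in it (all genes 1.42% and 1.27%). With number 2 held out it was 40 and 38 of 81 (0.879% and 0.666%). In these choices, which had used library 3, 67 and 63 of 74 and 56 and 65 of 81 were below 1. The share of all genes below 1 was not counted. Over all genes the median ratio was 0.952 and 0.959 in number 1, 0.972 and 1.00 in number 2, and 0.987 and 0.993 in number 3 (wild type and Mpglr-9). A ratio below 1 was thus common, and nothing is read from the counts below 1.

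The 68 genes were spread over all 8 numbered chromosomes, with between 5 and 12 on each. By locus number, 12 of them lay within 5 loci of another member, in 6 pairs. The directly adjacent pairs were MpCupin83 with MpCupin84, Mp2g26440 with MpLEA-like9, and Mp6g20760 with Mp6g20770. MpDHN1 and MpLEA-like48 were 2 loci apart, as were MpPTB4 and MpPTB2, and both genes of each of these 5 pairs fell on the same side of the split. Only Mp2g15720 and Mp2g15740, also 2 loci apart, lay on different sides of it: the first was at 40.9, 34.9 and 39.3 CPM in wild-type intact plants, against 2.99, 0.133 and 81.4 CPM for the second.

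Gene families chosen by symbol were counted among all tested genes. Only genes with at least 5 CPM could be members, and 0.668% of all such genes met the ratio. This level was reached by 42 peroxidase, 39 histone and cell cycle, 15 cupin, 52 P450, 85 cell wall, 118 transporter and 8 terpene genes. Family shares were not tested, so nothing is read from a number of members. The counts of fallen genes include the members, which the rule chose for their fall. Among 102 tested class III peroxidase genes 41 fell and 9 rose in wild-type damaged tissue (edgeR), and none was a member. Of 43 histone and cell cycle genes 36 fell and 1 rose, with no member. The photosynthesis symbols matched only 3 genes, MpCHLI1/2-like, MpRBCS and MpCHLD. All 3 fell and none was a member, and they do not stand for photosynthesis genes as a class. In 36 cupin genes 10 fell and 5 rose (2 members). Of 86 cytochrome P450 genes 26 fell and 28 rose (2 members), of 141 cell wall genes 45 fell and 38 rose (1 member), and of 159 transporter genes 49 fell and 60 rose (4 members).

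Of 15 terpene genes 3 fell and 4 rose (1 member). No member came from the 2-oxoglutarate oxygenases (14 of 29 fell, 5 rose), the lipid transfer, wax and cutin genes (10 of 24 fell, 4 rose), the receptor-like kinases (29 of 77 fell, 22 rose), the auxin genes (15 of 59 fell, 17 rose) or the transcription factors (31 of 204 fell, 85 rose). In these families without a member, 23, 20, 60, 45 and 169 genes reached 5 CPM, in the same order. The counts of fallen and risen genes moved with the scaling of the libraries. Over all genes 3738 fell and 3731 rose with TMM scaling, and 4768 fell and 2901 rose with upper-quartile scaling, which shifted the median log2 change of all genes from -0.03 to -0.12. With that scaling fewer transporters (50), P450 genes (26), terpene genes (3) and auxin genes (16) rose than fell (57, 29, 5 and 22). Plain library totals turned the P450 genes (27 rose, 28 fell) and the auxin genes (16 rose, 18 fell) as well. With upper-quartile scaling transcription factors still rose more often than they fell (73 against 47), and the other families named here kept more fallen than risen genes.

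Summed levels of cell type markers, read without a test, also differed between damaged and intact tissue. The summed level of MpCHLI1/2-like, MpRBCS and MpCHLD, the 3 markers found for photosynthetic thallus, was 635 to 722 CPM in the 6 intact libraries. It was 270 to 417 CPM in the 6 damaged ones. Genes listed as markers of dividing cells (19 histone H3 and H4, cyclin and CDKB genes) summed to 1170 to 1276 and 833 to 983 CPM. This list included the histone variants MpH3.3a and MpH3.3b, and whether each gene is confined to dividing cells was not checked. Gemma cup markers (2 genes) summed to 59.0 to 66.9 and 43.6 to 53.1 CPM. Oil body cell markers (5 genes) were higher in damaged tissue, at 381 to 520 CPM against 137 to 171 CPM. The air pore genes (2) at 128 to 133 and 131 to 150 CPM, the 1 rhizoid gene at 20.03 to 22.2 and 14.1 to 21.0 CPM and the reproductive genes (4) at 5.96 to 9.20 and 4.98 to 7.47 CPM overlapped. None of the listed markers was at 0 in all 6 intact libraries, and none was a member. Their part in the lower level of the members was not tested.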

How the data were processed

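Poly-A selected RNA was prepared with the NEBNext Ultra kit and sequenced as read pairs on a NovaSeq instrument, per the labels' protocols. The authors deposited raw read counts per gene, made with HISAT2 and HTSeq per the submitters' processing notes; the strand setting, like every version and the build, was not given in the sources used here, so overlapping, antisense and near-identical genes are uncertain. Totals per library were 17312755 to 30690205 counts.

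From the counts, CPM (count over library total) gave the set and all levels. Tests used edgeR 4.0.16 in R 4.3.3 (filterByExpr by group, 13450 genes including all 68 members, TMM, robust quasi-likelihood fit of 6 group means to all 18 libraries, two-sided, Benjamini-Hochberg adjusted p under 0.05 over all genes). Alternatives were DESeq2 1.42.0, limma-voom (limma 3.58.1), upper-quartile and no further scaling, no filter, a replicate block, the compared groups alone, each library left out, and all libraries numbered 3 left out. The edgeR script was tested on simulated data.

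Identifiers were matched by locus number to RefSeq's genes of MpTak2_v7.1, which held 17384 of 19355 identifiers and 67 of the 68 members, 24 of them with a symbol. MpGLR has no symbol there and was not analysed here, so its level gave no check of the genotype labels. No protein or promoter sequence was used here.

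The members, the families and the tests were chosen with earlier results of these data known. Members named in the text were drawn from the 10 with the highest intact level, the 10 with the lowest ratios and up to 4 of each family. Others came from the 3 with the smallest p in each test, the 3 nearest the limit on each side and up to 10 further genes with a symbol. Not all of these genes were named. Some unnamed genes, the LEA genes and the genes lost without library 3 were added after their values were seen.

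Same-numbered libraries deviated together from their group means, in every pair of number and with a smallest correlation across genes of 0.513 (intact, wild type with Mpglr-9), 0.189 (damaged, wild type with Mpglr-9), 0.168 (Mpglr-9, intact with systemic) and 0.104 (Mpglr-9, intact with damaged). These numbers were taken as pairs from the data, since no label says what they share, and the replicate block changed no call of a member in these comparisons. The limit for pairs was a correlation over 0.1 in every number. Wild-type intact and damaged libraries, at 0.0967, 0.227 and 0.196 in numbers 1, 2 and 3, fell just short of it and did not count as pairs. Mpglr-9, at 0.104, 0.308 and 0.347, was just past it, so no difference between the genotypes is read from this.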

Additional observations from a re-analysis of the deposited data

How the results depend on the processing

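The number of genes that met the rule was 140 with a minimum of 1 CPM, 44 with 10 CPM (7 replicate 3 genes and 37 other genes), 36 with a ratio of at most 1/4 and 325 with at most 1/2. It was 64 and 75 with TMM and upper-quartile scaling, and 58 to 81 when the libraries of 1 number were left out. Directly adjacent loci held 6 members, against 12 within 5 loci. With the replicate block, 1 member passed the threshold in Mpglr-9 against the wild type in systemic lobes (MpTPS6, log2 difference 1.35, edgeR adjusted p = 0.0153; 16 genes called in all) and 1 in the averaged systemic contrast (Mp5g24340, -0.60, adjusted p = 0.0311; 11 genes in all). In both contrasts the numbers do not count as pairs, since the smallest correlation was 0.0250 (wild-type with Mpglr-9 systemic) and 0.0388 (wild-type intact with systemic). Without all libraries numbered 3, a setting added after the data were seen, the averaged contrast called 2 members, Mp6g09300 (log2 change -0.99, adjusted p = 0.00999) and Mp8g03450 (adjusted p = 0.0480, higher in systemic tissue from intact counts near 0). No other alternative run called a member in systemic against intact tissue, between genotypes or in an interaction. Without the libraries numbered 3, the log2 change of damaged against intact tissue, averaged over genotypes, turned from negative to positive in 10 replicate 3 genes. The split by intact library 3 favours such a turn. Over the left-out numbers it ran from -3.07 to 0.54 (Mp2g15740), -2.64 to 0.13 (Mp2g26440), -3.08 to 0.30 (MpLEA-like9), -2.13 to 0.30 (Mp3g02290), -2.49 to 0.14 (Mp4g15050), -3.33 to 0.49 (MpLEAL6), -2.75 to 1.15 (Mp5g10000), -3.12 to 0.16 (MpLEA1), -2.68 to 0.12 (MpDHN1) and -4.15 to 1.46 (Mp8g03450). It moved by over 1 SD in 10 more genes, all lower in damaged tissue still, and kept within it in 48. Low counts limit the replicate 3 genes and MpTPS6. The promoter window alternative was not run.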
